A study of Mus musculus with 4 samples.

Results

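The 76 genes of the mitochondrial ribosome described here are those rows, of 37305 in the deposited mouse muscle RNA-seq table, whose symbol is Mrpl or Mrps followed by a number. They were required to have a mean FPKM (fragments per length of transcript, scaled to the fragments mapped in the library) of at least 1 over the 4 libraries. All 76 symbols met this minimum, and the lowest of them, Mrpl35, had 10.8 and 10.3 FPKM in MCK-TD A and B, against 9.58 and 10.0 FPKM in Con-TD F and G. No mitoribosomal gene lay near the minimum on either side. By the letter in the symbol, 47 belong to the large (L) subunit and 29 to the small (S) subunit, and 4 pseudogene rows with the suffix -ps were left out. The tissue was GTN muscle of C57BL/6 mice from 2 genotype groups, MCK-TD (libraries A and B) and Con-TD (libraries F and G). The labels expand none of these abbreviations, name no altered gene or allele, and give no age or treatment, so the targeted gene could not be checked.

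Mitochondria keep their own ribosome, which translates the few messenger RNAs of the mitochondrial genome into core subunits of the respiratory chain and the ATP synthase. Its ribosomal RNAs, mt-Rnr1 of the small and mt-Rnr2 of the large subunit, are transcribed inside the organelle, whereas all of its proteins are encoded in the nucleus, made in the cytosol and imported. The small subunit binds the messenger and decodes it, and the large subunit forms the peptide bond and feeds the chain through an exit tunnel to the inner membrane. Compared with bacteria the mitochondrial ribosome has lost RNA and gained proteins, so that many of its proteins have no bacterial counterpart.

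The absolute sequencing depth is unknown, since only FPKM values were deposited. FPKM sums were 1899175 and 2068375 in MCK-TD A and B, against 2725173 and 2762335 in Con-TD F and G. Without the 37 rows of the mitochondrial genome they were 701768 and 724630 in MCK-TD, against 760102 and 726343 in Con-TD. Of 12474 rows tested, 3837 were called at an adjusted p under 0.05, 3033 higher and 804 lower in MCK-TD. The median log2 change over all rows was 0.22 as deposited and 0.01 with median of ratios scaling. Of all rows 65.6% had a log2 change above 0 as deposited, 34.3% were higher and 11.0% lower at an unadjusted p under 0.05. Of 6 markers of muscle fibres 5 were lower in MCK-TD and none higher, and all 6 were abundant, with summed FPKM of 80602 and 107850 in MCK-TD, against 140803 and 128304 in Con-TD. Of 8 macrophage markers tested 6 were higher and 0 lower, none of them was at 0 in any library, and the summed level of the 9 listed in the table was 165 and 128 FPKM in MCK-TD, against 25.5 and 35.3 FPKM in Con-TD. Of 6 endothelial markers 2 were lower and 0 higher, with sums of 22.8 and 15.9 FPKM in MCK-TD, against 28.7 and 36.1 FPKM in Con-TD. Of 6 markers of fibro-adipogenic progenitors 2 were lower and 0 higher, with sums of 178 and 221 FPKM in MCK-TD, against 259 and 316 FPKM in Con-TD. The part of any of these cell types in the results on the mitoribosome was not tested, and in bulk tissue fewer cells of a type and less RNA per cell cannot be told apart. Whether each library is a mouse of its own is not labelled, so the tests see no more than the variation among these 4 libraries, which could be technical. A batch not recorded in the labels and genotype cannot be told apart.

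Setting the genotypes against each other addresses whether transcripts of the large and the small mitoribosomal subunit differ between them. As deposited, 13 of the 76 genes rose and 3 fell in MCK-TD muscle, or 17.1% and 3.95%, against 24.3% and 6.45% of all rows tested, and 60 were not called. Mitoribosomal genes were thus called in 21.1% of cases, against 30.8% over the table. The largest rises were those of Mrps22, a small-subunit protein without bacterial counterpart, and of Mrpl19, a homolog of a bacterial large-subunit protein, with folds of 2.30 and 2.27, and the largest fall was that of Mrpl23. With median of ratios scaling 5 of the 76 rose and 9 fell, or 6.58% and 11.8%, against 14.7% and 12.1% of all rows, so the balance of directions within the family depended on scaling. After quantile normalization 4 rose and 7 fell (all rows called 26.1%). With any 1 library left out, 0 of the 76 were called by limma, while 15 to 28 had an unadjusted p under 0.05, and 62 to 162 rows of the table were called. With median of ratios scaling, genes called lower in addition to those called as deposited were Mrps15, Mrps24, Mrps28, Mrpl30, Mrpl36 and Mrpl54, with log2 changes between -0.66 and -0.47 on that scale. All 5 higher calls and 3 of the 9 lower calls made there were among the calls on the deposited scale.

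**Figure D1:**
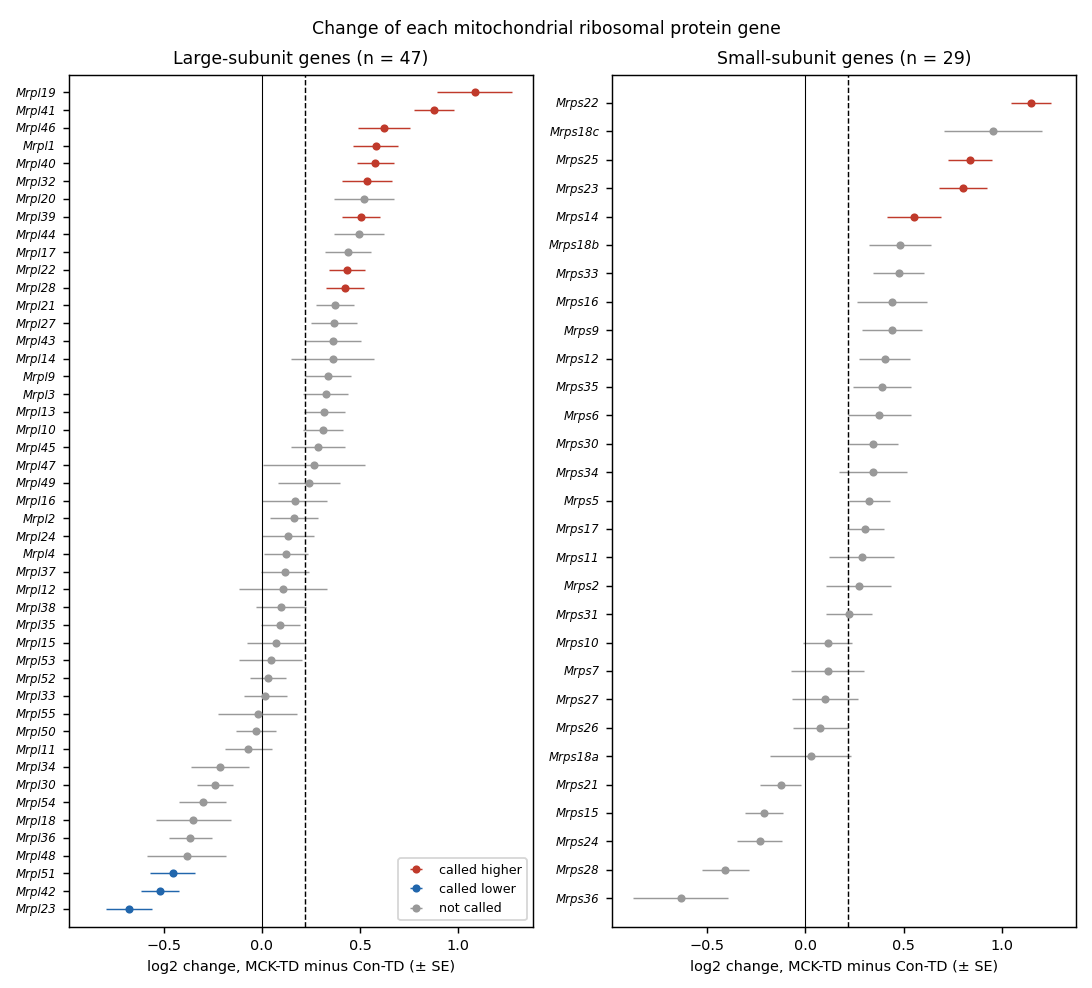
Log2 change (MCK-TD minus Con-TD, horizontal axis, bars are SE) of the 47 large-subunit genes (left) and 29 small-subunit genes (right), ordered by size, with calls in colour, a solid line at 0 and a dashed line at 0.22, the median over all rows tested. Large-subunit genes run from -0.68 for Mrpl23 to 1.08 for Mrpl19, and small-subunit genes from -0.63 for Mrps36 to 1.15 for Mrps22.

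Among small-subunit proteins with Mrps symbols that exist in mitochondria but not in bacteria, 3 of 9 rose and 0 fell. Of all rows 24.3% rose and 6.45% fell. All 9 changes were above 0 as deposited, as were 65.6% of all rows. The same 3 rose with median of ratios scaling, Mrps23 at a limma adjusted p of 0.0497, where 14.7% of all rows rose. On that scale 6 of the 9 changes were above 0, as were 50.5% of all rows. Mrps22 had 32.9 and 33.2 FPKM in MCK-TD A and B, against 13.6 and 15.1 FPKM in Con-TD F and G. Both MCK-TD libraries lay more than double the Con-TD libraries (log2 change 1.15, SE 0.10, limma adjusted p = 0.0086). Mrps25, another such protein, had 43.0 and 37.5 FPKM in MCK-TD, against 22.2 and 21.9 FPKM in Con-TD (log2 change 0.84, SE 0.11, adjusted p = 0.0141), and a log2 change of 0.56 after quantile normalization. Mrps23 was the most abundant of the 3, with 194 and 170 FPKM in MCK-TD, against 109 and 98.4 FPKM in Con-TD (log2 change 0.80, SE 0.12, adjusted p = 0.0174). The groups did not overlap for any of these 3 genes, nor for 72% of all rows. Called genes are picked by their change in these same libraries. Such separation, here and below, is therefore no separate result. The other 6 members of this list, not called, had log2 changes between 0.08 for Mrps26 and 0.48 for Mrps33.

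The Mrps18 genes are 3 homologs of a single bacterial protein, and in the assembled mammalian ribosome the product of Mrps18a sits in the large subunit despite its name. Mrps18c, the closest counterpart of the bacterial protein, had 125 and 171 FPKM in MCK-TD, against 62.9 and 89.3 FPKM in Con-TD. Its groups did not overlap, but the libraries of each group lay far apart and it was not called (log2 change 0.95, SE 0.25, adjusted p = 0.0522). Mrps18b, not called either, had 69.9 and 91.1 FPKM in MCK-TD, against 56.7 and 57.1 FPKM in Con-TD. Mrps18a had 72.3 and 51.9 FPKM in MCK-TD, against 54.7 and 66.1 FPKM in Con-TD, and its groups overlapped.

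**Figure D2:**
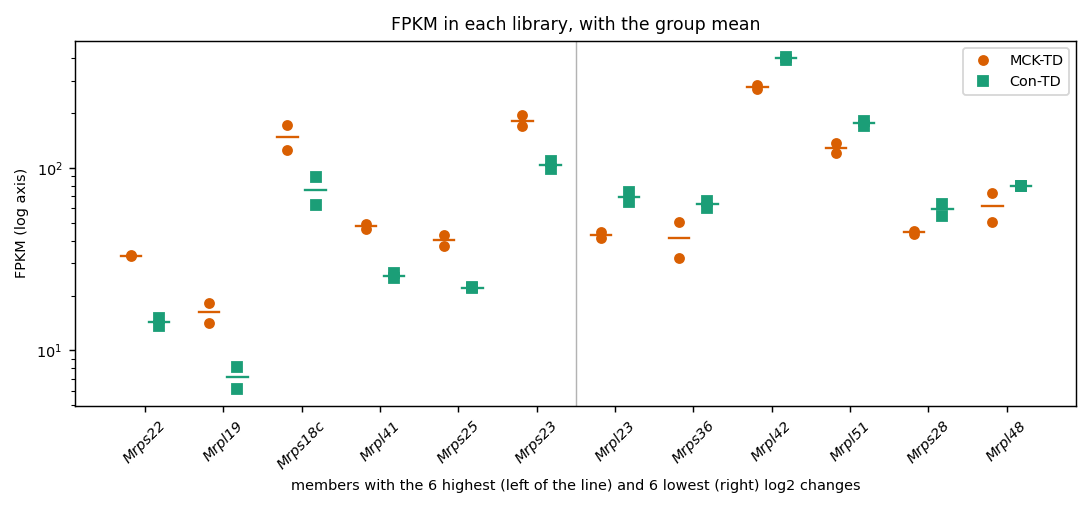
FPKM in each library (vertical log axis) of the members with the 6 highest (left of the line) and the 6 lowest (right) log2 changes, with MCK-TD left of Con-TD for each gene, points for libraries and bars for group means. For all 12 genes the MCK-TD points lie on one side of the Con-TD points, from Mrpl19 at 18.1 and 14.2 FPKM in MCK-TD, against 6.14 and 8.10 in Con-TD, to Mrpl42 at 284 and 270 in MCK-TD, against 392 and 403 in Con-TD. The genes were picked by their change in these same libraries, so this separation is no separate result. Of all rows 72% did not overlap between the groups.

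Proteins near the decoding site and along the messenger channel of the small subunit were not called. Of 5 such genes 0 rose and 0 fell by limma, against 24.3% and 6.45% of all rows. At an unadjusted p under 0.05, 2 were higher, a share near the 34.3% of all rows. Mrps24, 1 of the 5, fell with median of ratios scaling. Mrps12, homolog of the bacterial protein that monitors codon and anticodon pairing, had 49.9 and 43.8 FPKM in MCK-TD, against 32.8 and 37.5 FPKM in Con-TD (log2 change 0.40, SE 0.13, adjusted p = 0.0811). Mrps5, at the entry of the messenger channel, had 70.8 and 63.4 FPKM in MCK-TD, against 53.5 and 53.0 FPKM in Con-TD. Mrps24, at the same entry, had 53.4 and 49.7 FPKM in MCK-TD, against 57.0 and 64.7 FPKM in Con-TD. Mrps12 and Mrps5 lay above Con-TD in both MCK-TD libraries and Mrps24 below. The remaining small-subunit call was Mrps14, a homolog of a bacterial protein in the head of the subunit, which had 65.7 and 79.5 FPKM in MCK-TD, against 46.8 and 51.1 FPKM in Con-TD (log2 change 0.55, SE 0.14, adjusted p = 0.0466). This call ended with median of ratios scaling (log2 change 0.30, adjusted p = 0.151) and quantile normalization (0.32, adjusted p = 0.127).

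In the large subunit, 2 of 5 genes of the central protuberance, the knob at the top of the subunit, rose and 0 fell. Of all rows 24.3% rose and 6.45% fell. Mrpl40 had 34.5 and 33.0 FPKM in MCK-TD, against 22.4 and 22.2 FPKM in Con-TD (log2 change 0.58, SE 0.09, adjusted p = 0.0195). Mrpl46 had 29.4 and 24.2 FPKM in MCK-TD, against 16.5 and 17.5 FPKM in Con-TD (log2 change 0.62, SE 0.13, adjusted p = 0.0343). The groups of both called genes were clear of each other, as were those of 72% of all rows. Both calls ended with median of ratios scaling, where the log2 change was 0.33 for Mrpl40 (adjusted p = 0.0714) and 0.37 for Mrpl46 (adjusted p = 0.108), and after quantile normalization. Mrpl48 of the same knob had 50.4 and 73.1 FPKM in MCK-TD, against 79.5 and 79.5 FPKM in Con-TD, and was not called (adjusted p = 0.216). Mrpl18 and Mrpl38, its other members, had log2 changes of -0.35 and 0.10 and were not called.

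Around the exit tunnel, where the new chain leaves the ribosome toward the membrane, 2 of 8 genes rose and 1 fell. The share that rose, 25%, was near the 24.3% of all rows, and 12.5% fell, against 6.45%. Mrpl39 had 17.0 and 16.1 FPKM in MCK-TD, against 11.3 and 11.4 FPKM in Con-TD (log2 change 0.50, SE 0.10, adjusted p = 0.0267). Mrpl22, whose bacterial homolog lines the tunnel, had 41.1 and 39.6 FPKM in MCK-TD, against 29.4 and 29.9 FPKM in Con-TD (log2 change 0.43, SE 0.09, adjusted p = 0.0346). Mrpl23, homolog of a bacterial protein at the tunnel's mouth, had 41.4 and 44.6 FPKM in MCK-TD, against 64.9 and 74.0 FPKM in Con-TD (log2 change -0.68, SE 0.12, adjusted p = 0.0218). For all 3 genes the groups stayed apart as deposited, as they did for 72% of all rows. The calls of Mrpl39 (log2 change 0.26, adjusted p = 0.113) and Mrpl22 (0.18, adjusted p = 0.212) ended with median of ratios scaling, as they did after quantile normalization, and Mrpl23, which a pseudogene row follows closely, was the 1 gene of this site called. Mrpl45, which ties the tunnel exit to the inner membrane, had a log2 change of 0.29, and Mrpl44, in which variants cause cardiomyopathy in humans, one of 0.49, and neither was called.

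The stalk that recruits elongation factors, with the proteins at its base, had 0 calls among 5 genes by limma and 1 gene higher at an unadjusted p under 0.05, and with median of ratios scaling 1 of the 5, Mrpl54, fell. Mrpl10, the anchor of the stalk, had 22.4 and 20.7 FPKM in MCK-TD, against 17.5 and 16.8 FPKM in Con-TD (adjusted p = 0.0854). Mrpl54 had 67.7 and 61.7 FPKM in MCK-TD, against 74.7 and 85.5 FPKM in Con-TD. Mrpl11 had 51.1 and 52.3 FPKM in MCK-TD, against 49.9 and 59.0 FPKM in Con-TD, with overlapping groups. Mrpl12, the flexible arm of the stalk, had a log2 change of 0.11 with an SE of 0.22. The peptidyl transferase core had 0 calls among 5 genes by limma and 2 higher at an unadjusted p under 0.05. Mrpl27 of this core had 35.0 and 30.1 FPKM in MCK-TD, against 24.6 and 25.3 FPKM in Con-TD. Mrpl3 had 24.4 and 21.4 FPKM in MCK-TD, against 17.3 and 18.8 FPKM in Con-TD, and Mrpl2 had 91.0 and 77.6 FPKM in MCK-TD, against 77.1 and 72.7 FPKM in Con-TD. All 3 lay above Con-TD in both MCK-TD libraries as deposited, as did 50.7% of all rows. Mrpl2, however, had a log2 change of -0.09 with median of ratios scaling.

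The 2 largest rises of the large subunit lay outside these sites. Mrpl19 had 18.1 and 14.2 FPKM in MCK-TD, against 6.14 and 8.10 FPKM in Con-TD (log2 change 1.08, SE 0.19, adjusted p = 0.0229), and was not called after quantile normalization (log2 change 0.78, adjusted p = 0.0543). Mrpl41, a protein specific to mitochondria, had 49.5 and 46.2 FPKM in MCK-TD, against 26.5 and 24.8 FPKM in Con-TD (log2 change 0.87, SE 0.10, adjusted p = 0.0116). Both MCK-TD libraries were well above both Con-TD libraries for each gene. They were above, by any margin, for 50.7% of all rows. The other 3 large-subunit genes that rose were Mrpl1, homolog of the bacterial protein beside the exit of spent transfer RNA (log2 change 0.58, SE 0.11), Mrpl32, a zinc-binding protein matured by the m-AAA protease (0.54, SE 0.13), and Mrpl28 (0.42, SE 0.10). None of these 3 was called with median of ratios scaling, where Mrpl1 had a log2 change of 0.34 (adjusted p = 0.112), Mrpl32 one of 0.28 (0.139) and Mrpl28 one of 0.17 (0.256), or after quantile normalization. Mrpl20, a homolog of a bacterial protein needed early in assembly of the large subunit, had 74.1 and 66.9 FPKM in MCK-TD, against 43.5 and 54.6 FPKM in Con-TD, and was not called (adjusted p = 0.0668).

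Besides Mrpl23, the genes that fell were 2 abundant members. Mrpl42, the highest of all 76 in each library, had 284 and 270 FPKM in MCK-TD, against 392 and 403 FPKM in Con-TD (log2 change -0.52, SE 0.10, adjusted p = 0.0256). Mrpl51, like Mrpl42 specific to mitochondria, had 137 and 120 FPKM in MCK-TD, against 170 and 182 FPKM in Con-TD (log2 change -0.45, SE 0.11, adjusted p = 0.0491), and fell by 0.71 with median of ratios scaling. Its call ended when scaled without the 20 most abundant rows (log2 change -0.38, limma adjusted p = 0.0872). It was called in 5 of the 8 other settings that kept all 4 libraries. Con-TD lay above MCK-TD in every library for both genes, as it did for 21.3% of all rows. Mrps28, not called, had 45.2 and 43.4 FPKM in MCK-TD, against 54.7 and 63.8 FPKM in Con-TD. Of the other abundant members, Mrps21 had 277 and 258 FPKM in MCK-TD, against 282 and 302 FPKM in Con-TD, and Mrpl33 had 152 and 154 FPKM in MCK-TD, against 142 and 161 FPKM in Con-TD. Mrpl33 thus overlapped between the groups, and neither gene was called.

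The values of Mrpl23, Mrps36 and Mrpl48 are uncertain, because the table also holds pseudogene rows of these genes. Mrpl23-ps1 had 42.8 and 46.1 FPKM in MCK-TD, against 66.8 and 75.4 FPKM in Con-TD, almost the values of Mrpl23 itself, so the fall of Mrpl23 cannot be told apart from that of its copy. Mrps36, with 50.5 and 32.1 FPKM in MCK-TD, against 60.1 and 66.2 FPKM in Con-TD, was not called (log2 change -0.63, SE 0.24, adjusted p = 0.118). Its pseudogene row Mrps36-ps1 fell (log2 change -0.72, SE 0.13, adjusted p = 0.0231), and Mrps36-ps2, not called as deposited and called lower with median of ratios scaling, had 46.7 and 31.2 FPKM in MCK-TD, against 61.2 and 69.9 FPKM in Con-TD. The row Mrpl48-ps had 12.9 and 13.8 FPKM in MCK-TD, against 11.7 and 17.4 FPKM in Con-TD, below the level of Mrpl48 itself. The product of Mrps36 is now placed in the 2-oxoglutarate dehydrogenase complex of the citric acid cycle and not in the ribosome. Mrps30, a large-subunit protein despite its symbol, had 23.1 and 19.5 FPKM in MCK-TD, against 17.2 and 15.9 FPKM in Con-TD (adjusted p = 0.108).

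How the subunits stood to each other depended on the summary used. The median log2 change was 0.17 over the large and 0.33 over the small subunit, a difference of -0.16 (large minus small), against 0.22 over all rows. Of the large-subunit genes 9 of 47 rose and 3 fell, or 19.1% and 6.38%. Of the small-subunit genes 4 of 29 rose and 0 fell, or 13.8% and 0%. Both subunits rose less often than all rows, of which 24.3% rose and 6.45% fell. The median member of the large subunit had 46.8 and 40.4 FPKM in MCK-TD, against 34.0 and 35.4 FPKM in Con-TD, and that of the small subunit 48.0 and 43.4 FPKM in MCK-TD, against 38.6 and 37.5 FPKM in Con-TD. The large median over the small median was 0.974 and 0.931 in MCK-TD, against 0.882 and 0.942 in Con-TD, so by this measure the groups overlapped. Summed, the small subunit had 1721 and 1638 FPKM in MCK-TD, against 1340 and 1459 FPKM in Con-TD, with the groups apart. The large subunit summed to 2765 and 2485 FPKM in MCK-TD, against 2532 and 2704 FPKM in Con-TD, with the groups overlapping. The summed FPKM of the large subunit over that of the small subunit was 1.61 and 1.52 in MCK-TD A and B, against 1.89 and 1.85 in Con-TD F and G. This ratio does not change when a library is multiplied by a factor, and the groups did not overlap. Its log2 difference was -0.26 as deposited and -0.27 after quantile normalization. It is a description of 2 libraries against 2, for which the smallest two-sided exact permutation p is 0.333. Without Mrpl42, the most abundant gene, the ratio was 1.44 and 1.35 in MCK-TD, against 1.60 and 1.58 in Con-TD. With Mrps30 and Mrps18a counted as large and Mrps36 left out, the difference of medians was -0.17, and without Con-TD G it was -0.03.

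**Figure D3:**
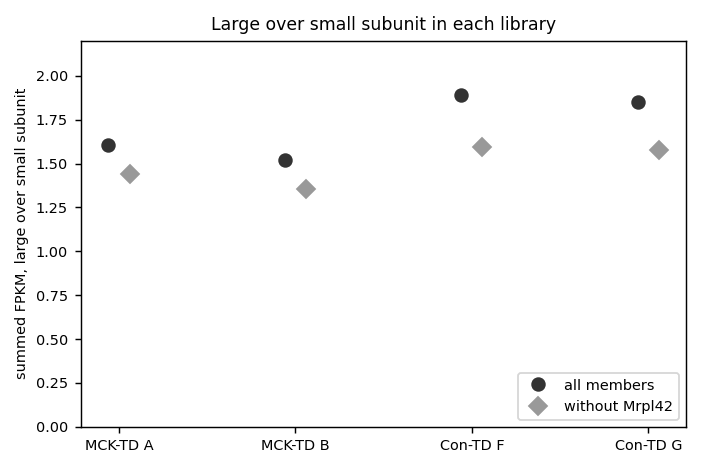
Summed FPKM of the 47 large-subunit genes over that of the 29 small-subunit genes in each library (vertical axis from 0), for all members (dark circles) and without Mrpl42 (grey diamonds). The ratio for all members lies at 1.61 and 1.52 in the MCK-TD libraries and at 1.89 and 1.85 in the Con-TD libraries.

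The ribosomal RNAs themselves, which lie in the mitochondrial genome, were not called as deposited. The small-subunit RNA mt-Rnr1 had 1975 and 1990 FPKM in MCK-TD, against 2176 and 1985 FPKM in Con-TD (log2 change -0.07, SE 0.11). The large-subunit RNA mt-Rnr2 had 3670 and 3819 FPKM in MCK-TD, against 4837 and 4639 FPKM in Con-TD (log2 change -0.34, SE 0.11, limma adjusted p = 0.0831). It fell by 0.60 with median of ratios scaling (adjusted p = 0.0295), and after quantile normalization its log2 change was -0.08. Libraries were enriched for mRNA, and how that enrichment acts on these RNAs is not given in the sources used here.

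Mitoribosomal proteins that carry other symbols were listed separately. Of 4 small-subunit proteins 3 rose and 0 fell, against 24.3% and 6.45% of all rows. Ptcd3, a pentatricopeptide repeat protein at the messenger entry, had 32.9 and 32.2 FPKM in MCK-TD, against 19.1 and 21.4 FPKM in Con-TD (log2 change 0.66, SE 0.11, adjusted p = 0.0190). Aurkaip1 had 97.4 and 97.9 FPKM in MCK-TD, against 62.1 and 67.8 FPKM in Con-TD (log2 change 0.58, SE 0.10), and the GTP-binding protein Dap3 had 60.3 and 54.4 FPKM in MCK-TD, against 42.2 and 41.9 FPKM in Con-TD (log2 change 0.44, SE 0.10). These 3 were above Con-TD in both MCK-TD libraries, as were 50.7% of all rows, while Chchd1 had a log2 change of -0.12 with overlapping groups. Of 3 large-subunit proteins, Ict1, Mrp63 and Gadd45gip1, 0 were called by limma and 0 had an unadjusted p under 0.05, with log2 changes between 0.14 and 0.20 as deposited and below 0 with median of ratios scaling. On that scale Ptcd3 alone of the 3 small-subunit calls was kept (log2 change 0.41, adjusted p = 0.0468), with Aurkaip1 at 0.33 (0.0657) and Dap3 at 0.18 (0.261), and after quantile normalization 0 of the 4 were called by limma while 50% were higher at an unadjusted p under 0.05.

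Of 14 mitochondrial translation factors 3 rose and 0 fell, or 21.4% higher, below the 24.3% of all rows. Mtif3, an initiation factor, had 29.8 and 19.6 FPKM in MCK-TD, against 10.6 and 9.13 FPKM in Con-TD (log2 change 1.22, SE 0.23, adjusted p = 0.0264). Guf1, an elongation factor of the bacterial LepA family, had 14.5 and 14.7 FPKM in MCK-TD, against 9.91 and 9.80 FPKM in Con-TD. Tsfm, the exchange factor of the elongation factor Tufm, had 13.7 and 11.6 FPKM in MCK-TD, against 8.13 and 8.94 FPKM in Con-TD. All 3 had MCK-TD above Con-TD in each library, as had 50.7% of all rows. Mtrf1l, a release factor, had 4.19 and 5.10 FPKM in MCK-TD, against 7.23 and 6.62 FPKM in Con-TD, and was not called as deposited. With median of ratios scaling 0 of the 14 rose and 2 fell, with Mtif3 at 0.98 (adjusted p = 0.0508), Guf1 at 0.29 (0.0917) and Tsfm at 0.28 (0.177), and Mtrf1l was 1 of the 2 (-0.71, adjusted p = 0.0304).

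Of 24 tested rows of assembly and ribosomal RNA modification factors 3 rose and 1 fell, or 12.5% and 4.17%, below the 24.3% and 6.45% of all rows. The one that fell was Malsu1, listed under its older name 2410003K15Rik, which keeps the immature large subunit from joining the small one. It had 21.9 and 22.3 FPKM in MCK-TD, against 40.2 and 41.2 FPKM in Con-TD (log2 change -0.85, SE 0.09, limma adjusted p = 0.0106). Mterfd2, now Mterf4, which acts with a methyltransferase in assembly, had 9.64 and 9.19 FPKM in MCK-TD, against 5.57 and 5.53 FPKM in Con-TD (log2 change 0.67, SE 0.10). The helicase Ddx28 had 8.97 and 7.27 FPKM in MCK-TD, against 5.22 and 4.26 FPKM in Con-TD, and Ptcd1 had 5.65 and 4.52 FPKM in MCK-TD, against 3.07 and 2.12 FPKM in Con-TD. On the median of ratios scale Malsu1 fell by 1.10 and Mterfd2 rose (log2 change 0.44, adjusted p = 0.0428), while Ddx28 (0.44, adjusted p = 0.125) and Ptcd1 (0.56, adjusted p = 0.115) were not called. The median log2 change of this list was 0.12, and that of the translation factors 0.22, against 0.22 over all rows.

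Nuclear-encoded subunits that assemble with the products of mitochondrial translation, and the proteins of the cytosolic ribosome, had lower medians than the mitoribosome. Of 80 tested rows of nuclear-encoded subunits of the respiratory chain and ATP synthase 0 rose and 5 fell by limma. The share that fell, 6.25%, was near the 6.45% of all rows, of which 24.3% rose. In this list 4 rows were higher and 10 lower at an unadjusted p under 0.05, and the median log2 change was -0.02. Ndufs1 of complex I had 79.3 and 74.6 FPKM in MCK-TD, against 119 and 123 FPKM in Con-TD, and Atp5g2 of the ATP synthase had 160 and 159 FPKM in MCK-TD, against 225 and 231 FPKM in Con-TD. Of 78 tested rows of cytosolic ribosomal proteins 2 rose and 4 fell, or 2.56% and 5.13%, both below the shares of all rows, with a median of -0.11. Rps2 had 260 and 236 FPKM in MCK-TD, against 106 and 104 FPKM in Con-TD, and Rpl3l, the muscle paralog of Rpl3, had 160 and 128 FPKM in MCK-TD, against 283 and 284 FPKM in Con-TD. Relative to the median of all rows, the large mitoribosomal subunit stood at -0.05, the small subunit at 0.11, the respiratory chain at -0.24 and the cytosolic ribosome at -0.32. With median of ratios scaling these values were -0.09, 0.06, -0.29 and -0.37, and 0 of the respiratory chain rows rose and 16 fell, while 2 of the cytosolic ribosome rows rose and 29 fell. Of all rows 14.7% rose and 12.1% fell on that scale. The differences between lists were not tested.

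**Figure D4:**
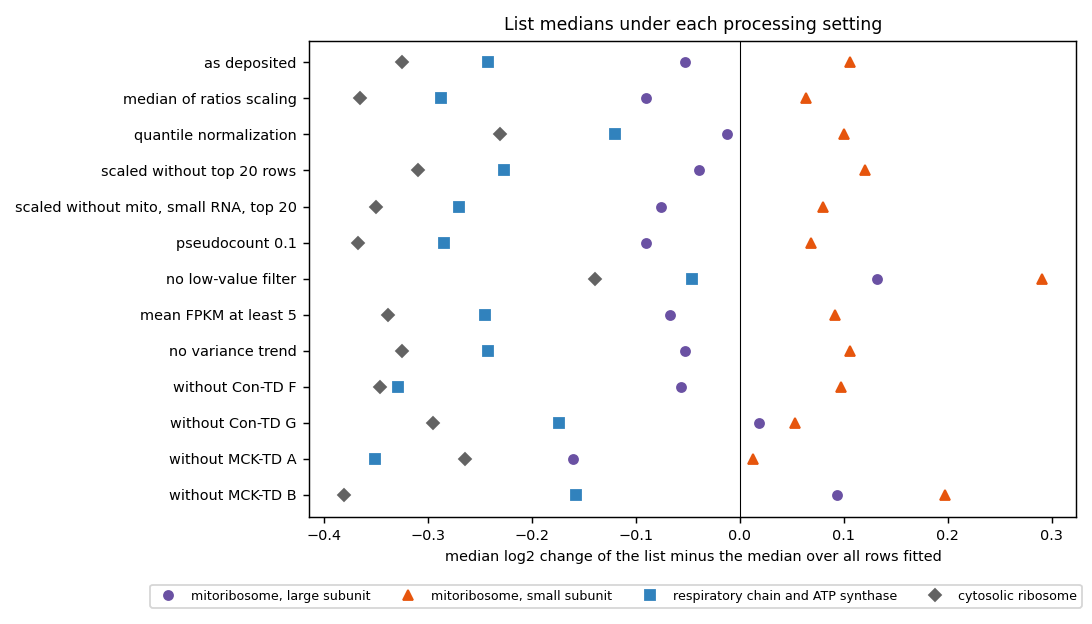
Median log2 change of 4 gene lists minus the median over all rows fitted (horizontal axis), under the deposited scale and 12 other settings (rows). The small mitoribosomal subunit lies above 0 in each of these settings, from 0.01 without MCK-TD A to 0.29 without a filter on low values, the large subunit lies on both sides of 0, and the respiratory chain and cytosolic ribosome lie below 0 in each.

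Members differed from each other more than libraries of a group did. The SD of the log2 change over the 76 genes was 0.37, while the SD of the difference between MCK-TD A and B was 0.21 and that between Con-TD F and G 0.17. The order was the same over all rows, with SDs of 0.82, 0.66 and 0.63. MCK-TD A stood above MCK-TD B for 62 of the 76 genes, with a median difference of 0.15 on the log2 scale, whereas the median over all rows was -0.03. Con-TD F stood above Con-TD G for 20 of the 76, with a median of -0.10. The shift of the family between libraries of 1 group was thus not small beside the median change of 0.28 between the groups. The median over all 76 genes ran from 0.08 for MCK-TD B minus Con-TD G to 0.40 for MCK-TD A minus Con-TD F. The groups did not overlap for 56 genes, with 43 above and 13 below Con-TD in both MCK-TD libraries, against 72% of all rows, 50.7% above and 21.3% below.

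Less abundant members tended to have the higher changes. Spearman's rho between mean FPKM and log2 change was -0.31 across the 76 genes, which share libraries and are not independent, and -0.01 across the 12474 rows. The 13 genes that rose had a median Con-TD level of 22.3 FPKM, the 3 that fell one of 176 FPKM, and the 60 not called one of 39.3 FPKM. Con-TD values also enter the change that set these calls, so these medians are no separate support for the trend. The 3 that fell ran from 69.5 FPKM, for Mrpl23, to 398 FPKM. Transcript length moved with the change as well. In the 25 shortest members (463 to 1031 bases) the median log2 change was 0.03, in the 26 of middle length 0.31 and in the 25 longest 0.31, against 0.16, 0.26 and 0.26 for all rows of the same lengths. The part of length in the differences among members was not tested. Genes with and without a bacterial counterpart had medians of 0.28 (48 genes) and 0.29 (27 genes). Of those with a counterpart 6 were higher and 1 lower, or 12.5% and 2.08%. Of those without, 7 were higher and 2 lower, or 25.9% and 7.41%, near the 24.3% and 6.45% of all rows. With median of ratios scaling 1 was higher and 6 lower of those with a counterpart, and 4 higher and 3 lower of those without. On that scale 14.7% of all rows were higher and 12.1% lower.

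**Figure D5:**
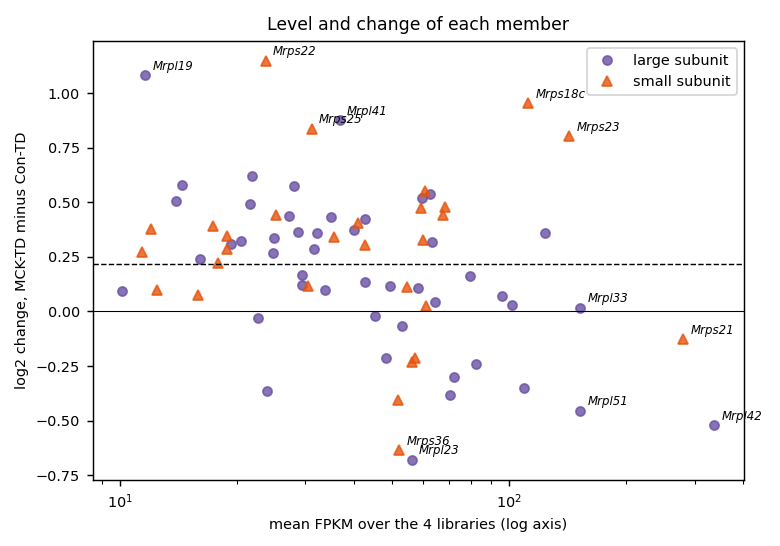
Mean FPKM over the 4 libraries (horizontal log axis) against log2 change (vertical axis) for large-subunit (circles) and small-subunit (triangles) genes, with a dashed line at the median of all rows, 0.22. Genes of low level such as Mrpl19 and Mrps22 lie at the top, and Mrpl42, the most abundant, lies at -0.52. Other genes depart from this trend. Mrps18c and Mrps23, with means of 112 and 143 FPKM, lie at 0.95 and 0.80, and Mrpl35, with the lowest mean (10.2 FPKM), lies at 0.09.

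Promoters of mitochondrial ribosomal protein genes are known for binding sites of NRF1, of the ETS factor GABPA and of YY1, which regulate many nuclear genes for mitochondrial proteins. RefSeq promoter windows (GRCm38.p6, 250 bases before to 50 after the start) were found by symbol for 67 of the 76 members. Each was searched on both strands for 7 motifs. The ETS letters CCGGAAG stood in 23 windows (34.3%), against 9.12% of 27025 promoters in the whole table and 19.1% of the 7462 promoters of genes tested here. The YY1 letters AAGATGGC stood in 12 (17.9%), against 2.88% and 5.08%. The NRF1 letters, GCGCA and GCGC with 1 base of any kind between them, stood in 12 (17.9%), against 4.78% and 11.5%. The E-box CACGTG stood in 5 (7.46%), against 7.24% and 10.9%, and the CRE letters TGACGTCA in 2 (2.99%), against 1.88% and 3.44%. Both shares were below that of the genes tested, while the ERR letters TCAAGGTCA and the C/EBP-ATF letters TGATGNAAT stood in 0. Motifs were counted separately, and overlap between them was allowed.

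Windows of 7 of the 15 called genes with a promoter held at least 1 of these motifs, and 4 are shown because the same letters stood in windows of genes called in opposite directions. Capitals mark the motif. The ETS letters lie in the window of Mrps22, which rose (chr9:98601630-98601929, minus strand, first base of the motif at position 240 of the window), and in that of Mrpl51, which fell (chr6:125191950-125192249, plus strand, position 161). The YY1 letters lie in the window of Mrpl32, which rose (chr13:14612988-14613287, minus strand, position 9, on the opposite strand of the gene, with NRF1 letters at 164), and in that of Mrpl42, which fell (chr10:95501900-95502199, minus strand, position 278, past the start).
Mrps22: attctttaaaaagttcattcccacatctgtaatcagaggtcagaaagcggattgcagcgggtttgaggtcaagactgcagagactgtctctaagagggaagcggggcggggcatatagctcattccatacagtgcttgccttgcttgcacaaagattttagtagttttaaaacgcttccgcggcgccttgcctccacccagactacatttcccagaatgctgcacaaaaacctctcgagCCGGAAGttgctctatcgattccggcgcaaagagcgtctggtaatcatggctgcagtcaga
Mrpl51: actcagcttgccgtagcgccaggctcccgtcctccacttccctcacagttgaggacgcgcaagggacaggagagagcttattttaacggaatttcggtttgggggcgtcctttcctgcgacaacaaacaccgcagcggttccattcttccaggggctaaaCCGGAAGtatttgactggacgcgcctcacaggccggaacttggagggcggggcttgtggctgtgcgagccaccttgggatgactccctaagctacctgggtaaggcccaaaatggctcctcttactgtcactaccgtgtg
Mrpl32: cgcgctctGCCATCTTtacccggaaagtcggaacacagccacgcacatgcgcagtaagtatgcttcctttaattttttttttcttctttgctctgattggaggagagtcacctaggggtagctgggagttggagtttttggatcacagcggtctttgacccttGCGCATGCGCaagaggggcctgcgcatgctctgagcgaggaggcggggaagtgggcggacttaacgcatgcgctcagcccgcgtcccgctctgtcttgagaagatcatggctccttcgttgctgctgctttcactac
Mrpl42: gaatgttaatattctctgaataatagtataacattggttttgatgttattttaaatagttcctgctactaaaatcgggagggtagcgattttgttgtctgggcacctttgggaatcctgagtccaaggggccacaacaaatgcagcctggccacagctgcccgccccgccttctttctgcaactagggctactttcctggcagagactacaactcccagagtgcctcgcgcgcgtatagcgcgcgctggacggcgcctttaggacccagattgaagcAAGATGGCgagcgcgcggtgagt
Of 12 genes that rose and had a window, 3 held the ETS letters, 2 the NRF1 letters and 1 the YY1 letters. Of the 3 that fell, 1 held the ETS and 1 the YY1 letters. A match of letters describes the window, and binding was not measured.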

How the data were processed

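Muscle RNA was sequenced in 4 libraries after mRNA enrichment, per the series design text. The deposited table holds 1 FPKM value per row and library, made by the authors. The submitters' processing notes name STAR, Cufflinks and the mouse build mm9. Versions, roles, annotation and strand are not stated there, so overlapping genes and near-identical copies may share fragments. FPKM was taken as log2(FPKM + 1), a scale that understates changes of low genes. After a filter at a mean FPKM of 1, which left 12474 rows, limma 3.58.1 under R 4.3.3 fitted genotype to all of them with a variance trend and 2 residual degrees of freedom, and two-sided p-values were Benjamini-Hochberg adjusted over these rows. A call is an adjusted p under 0.05, and a change is MCK-TD minus Con-TD. The fit was tested on simulated data. Alternatives were other scalings, pseudocounts and filters, and leaving out each library. Sequencing depth is unknown, so no counting error is given. Members, lists and the rule for named genes were chosen with earlier results of these data known. That rule took the 6 highest and 6 lowest changes, the 4 most abundant members, the Mrps18 genes, Mrps30 and Mrps36, and the smallest p-values of each ribosome site and list. Text notes deposited beside the table were not used here. Transcript lengths and neighbours were taken by symbol from GENCODE M21 on GRCm38, which is not the authors' build.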

Additional observations from a re-analysis of the deposited data

How the results depend on the processing

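Calls of Mrps22, Mrpl41, Mrps25 and Mrpl42 held in each of the 8 settings that kept all 4 libraries, and no member was called with 1 library left out. The large-subunit and small-subunit medians were -0.083 and 0.071 with median of ratios scaling, -0.060 and 0.052 after quantile normalization, and 0.020 and 0.18 when scaled without mitochondrial rows, small RNAs and the 20 most abundant others. The difference of medians was -0.11 after quantile normalization, -0.18 with proteins under other symbols, and -0.094 without members that share sequence with a pseudogene row. Quantile normalization called 6 large-subunit genes. Without a filter on low values 2043 rows and 7 members were called, 5 large and 2 small. With the filter kept and proteins under other symbols added, 7 small-subunit genes were called on the deposited scale. The log2 difference of the summed ratio was -0.18 without Mrpl42 and -0.21 without the 2 most abundant genes of each subunit. The summed ratio with its alternatives, and leaving out pseudogene sharers, were chosen after seeing the data.

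With 1 library left out, 62 to 162 rows and 0 members, 0 large and 0 small, were called. The large-subunit median ranged over 0.058 to 0.30, the small-subunit median over 0.23 to 0.40, their difference over -0.17 to -0.034 and the summed ratio over -0.30 to -0.22. The lone library of a group was assumed to vary like the other group. Of the 76 members, 19 changed sign with median of ratios scaling, 22 after quantile normalization and 15 when scaled without mitochondrial rows, small RNAs and the 20 most abundant others, all of them above 0 as deposited, and none was called as deposited. Among genes named in the text, median of ratios gave -0.15 for Mrpl12, -0.091 for Mrpl2, -0.24 for Mrpl33, -0.14 for Mrpl35, -0.15 for Mrpl38, -0.23 for Mrps18a, -0.17 for Mrps26, -0.078 for Gadd45gip1, -0.052 for Ict1, -0.089 for Mrp63 and -0.20 for Tfam. Quantile normalization gave, in the same order, -0.12, -0.027, -0.13, -0.21, -0.17, -0.19, -0.22, -0.15, -0.048, -0.17 and -0.21, and -0.0087 for Mrps11 and 0.069 for mt-Rnr1. Scaling without mitochondrial rows, small RNAs and the 20 most abundant others gave -0.042 for Mrpl12, -0.13 for Mrpl33, -0.045 for Mrpl35, -0.051 for Mrpl38, -0.12 for Mrps18a, -0.065 for Mrps26 and -0.094 for Tfam, and scaling without the 20 most abundant rows 0.0087 for Mrpl11 and 0.011 for mt-Rnr1. With 1 library left out, Chchd1 ranged over -0.26 to 0.024, Gadd45gip1 over -0.093 to 0.40, Mrpl11 over -0.19 to 0.049, Mrpl12 over -0.15 to 0.36, Mrpl33 over -0.076 to 0.11, Mrpl38 over -0.0096 to 0.20, Mrpl48-ps over -0.36 to 0.18, Mrps18a over -0.21 to 0.26, Mrps26 over -0.056 to 0.21 and Tfam over -0.22 to 0.32. The cause was not tested. No paired analysis was possible because the library letters differ between the groups and the labels give no shared replicate numbers.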

Other observations

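Many mitoribosomal genes lie head to head with another protein-coding gene. In the GRCm38 annotation 29 of the 76 had such a partner, with starts within 1000 bases, that is also in the table, and 23 partners outside the family were tested. Of these 6 rose and 0 fell in MCK-TD, or 26.1% higher, near the 24.3% of all rows, and in 2 pairs both genes rose. Psma2, a proteasome subunit opposite Mrpl32, had 50.6 and 55.2 FPKM in MCK-TD, against 23.5 and 24.8 FPKM in Con-TD (log2 change 1.10, SE 0.10, limma adjusted p = 0.00886). Hira, a histone chaperone opposite Mrpl40, had 8.46 and 9.73 FPKM in MCK-TD, against 6.25 and 6.27 FPKM in Con-TD, a call that ended with median of ratios scaling (log2 change 0.24, adjusted p = 0.174). Wdfy1, opposite Mrpl44, had a log2 change of 1.33 (SE 0.15). Mrpl46 of the large and Mrps11 of the small subunit are partners of each other, with log2 changes of 0.62 and 0.29, of which only that of Mrpl46 was called. These pairs were named after their values were seen.

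Genes of mitochondrial DNA upkeep and transcription were called in 1 of 7 cases, or 14.3%, against 30.8% of all rows. Peo1, now Twnk, the helicase that unwinds mitochondrial DNA, had 3.52 and 2.62 FPKM in MCK-TD, against 6.51 and 8.50 FPKM in Con-TD (log2 change -1.06, SE 0.19, limma adjusted p = 0.0238). Tfam, which packages mitochondrial DNA and starts its transcription, had 34.7 and 23.6 FPKM in MCK-TD, against 27.2 and 28.0 FPKM in Con-TD, and its groups overlapped. Polrmt, the mitochondrial RNA polymerase, had 23.7 and 28.7 FPKM in MCK-TD, against 17.9 and 21.3 FPKM in Con-TD, and was not called.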
